A study of Mus musculus with 16 samples.

Results

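The cytosolic ribosomal protein genes encode the protein part of the ribosome that translates nuclear messages in the cytosol. They were taken as the genes whose symbol starts with Rpl or Rps and a digit, together with Rplp0, Rplp1, Rplp2, Rpsa and Fau, with S6 kinases, pseudogenes and symbols ending in l (paralogs such as Rpl22l1) left out, and with at least 10 counts in at least 4 libraries. The rule found 81 genes of the 21965 in the deposited table, and all 81 passed the filter for testing. Of them 78 are standard ribosomal protein genes, 46 of the large subunit and 32 of the small one. The other 3 are Rps27rt and Rpl35rt, which are retrotransposed copies of Rps27 and Rpl35, and Rps19bp1, which encodes a binding partner of Rps19 and is not part of the ribosome. Leaving out by the rule took 10 S6 kinase genes, 8 paralogs and 3 pseudogenes, and 2 further genes, Rpl27rt and Rps23rg1, were under the count minimum.

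Messenger RNA of the mouse macrophage line RAW264.7, which derives from a leukemia, was sequenced with 4 libraries in each of 4 groups. Control cells received culture medium as vehicle. The other groups received 50 µg/ml of oxLDL, the oxidised form of low-density lipoprotein, or 100 nmol/ml of tirzepatide (the labelled unit, though nmol/l may be meant), or both agents together (the combination). OxLDL is the modified lipoprotein that macrophages take up in atherosclerotic plaques, and tirzepatide is a peptide that activates the GIP and GLP-1 receptors. The labels give no treatment time. They also do not state that libraries of 1 group were grown as separate cultures, so the p-values reflect the spread among these samples, which may be technical.

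A ribosome holds a single copy of nearly every ribosomal protein, and proliferating cells devote a large share of their messenger RNA to them. Most ribosomal protein messages begin with a C followed by a run of pyrimidines, the 5′ terminal oligopyrimidine or TOP motif, through which mTOR signalling and the protein LARP1 control their translation and stability. Proteins of the large subunit belong to the part that holds the peptidyl transferase centre, and some form the stalk that recruits elongation factors. Those of the small subunit belong to the part that binds the messenger RNA and holds the decoding centre.

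Start sites of members that the results turn on are printed here to show this motif beside the changes described later. Of the 81 members 60 matched an entry in the RefSeq promoter table (GRCm38.p6, an earlier build than that of the deposited table), 58 of them standard genes. Each line shows 40 bases before and 25 after the annotated start, 5′ to 3′. Capitals mark the longest pyrimidine run of at least 6 bases that begins with C between 15 bases before and 25 after the start, and Rps28 has no such run. Rps28 showed the largest decrease with tirzepatide, Rpl28 and Rplp2 were among the largest decreases with the combination, Rps6 is one of the most abundant members, and Rpl12 and Rps2 were among the least changed with tirzepatide.
Rps28 (chr17:33824538-33824602, minus strand): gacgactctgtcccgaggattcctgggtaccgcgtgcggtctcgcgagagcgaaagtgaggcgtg
Rpl28 (chr7:4792925-4792989, plus strand): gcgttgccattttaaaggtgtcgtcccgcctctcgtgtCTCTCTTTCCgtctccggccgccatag
Rplp2 (chr7:141447611-141447675, plus strand): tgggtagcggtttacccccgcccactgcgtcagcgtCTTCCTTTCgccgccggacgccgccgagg
Rps6 (chr4:86857343-86857407, minus strand): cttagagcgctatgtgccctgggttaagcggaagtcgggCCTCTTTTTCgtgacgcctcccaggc
Rpl12 (chr2:32961672-32961736, plus strand): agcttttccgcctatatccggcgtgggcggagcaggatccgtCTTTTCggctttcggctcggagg
Rps2 (chr17:24720023-24720087, plus strand): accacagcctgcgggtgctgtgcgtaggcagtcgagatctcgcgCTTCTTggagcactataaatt

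Between 15 bases before and 25 after the start, 37 of the 58 matched standard genes (63.8%) had a pyrimidine run of 6 or more beginning with C on the sense strand, against 28.5% of all 32851 promoters in the table. The letters CCGGAAG, on either strand of the 300-base entry, were in 41.4% of the genes and 8.86% of all promoters. CTTTCC was in 50.0% and 26.6%. A gene counted when any of its entries matched (68 entries for the 58 genes), while the share of all promoters is per entry. The genes' shares can be raised by this. Matches to CCGGAAG and CTTTCC did not overlap each other in the genes' promoters, while a pyrimidine run can hold CTTTCC, as in Rpl28. These are matches of letters and do not show binding or use as a start.

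The members made up a large share of these transcriptomes. Of the 100 genes with the highest mean TPM, a transcript level scaled for gene length and library depth, 52 were standard ribosomal protein genes, and of the top 50 they were 24. Mean TPM over the 16 libraries ran from 148 to 6698 with a median of 1446, and 61 of the 78 lay between 500 and 3000. The highest were Rps7 (6698 TPM), Rps24 (4841), Rps6 (4396), the substrate that S6 kinases phosphorylate, Rps3a1 (3667) and Rpl26 (3336). The lowest were Rps20 (148 TPM), Rps18 (209), Rpl39 (308), Rpl37a (382) and Rps28 (393). Rps20 had a mean count of 4552 and an effective length of 1.38 times that of the median tested gene, where the other 77 standard genes were shorter than that gene (lowest 0.129, median 0.273), a difference of gene model that enters its TPM.

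At Rps18 the deposited counts went mostly to a copy. The pseudogene entry Rps18-ps6 held 89.1% to 93.1% of the summed counts of the pair in each library, and its TPM ran from 1968 to 2667 where that of Rps18 ran from 180 to 248. Rpl10-ps3 likewise held 64.4% to 75.6% of its pair with Rpl10, an essential protein of the large subunit. Counts of 16 standard genes were not whole numbers in at least 1 library, as occurs where reads are divided between entries, and those of the other 62 were whole in all 16 libraries.

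With all genes in the total, the 81 members together made up a smaller share of TPM in every treated library than in any control. The share was 14.1%, 14.9%, 14.99% and 13.9% in controls 1 to 4 and 13.3%, 13.8%, 13.6% and 13.8% with oxLDL. It was 13.2%, 13.6%, 13.8% and 13.1% with tirzepatide and 12.3%, 13.2%, 13.0% and 13.5% with the combination. The lowest control stood just above the highest treated library, and the group means were 14.5% ± 0.543, 13.6% ± 0.196, 13.4% ± 0.337 and 13.0% ± 0.511 (SD, n = 4) in that order. As a share of counts, which weights long genes more, the members held 5.76% to 6.32% in the controls and 5.63% to 5.84% with oxLDL, which overlapped. That share was 5.44% to 5.71% with tirzepatide and 5.19% to 5.60% with the combination, both below the controls. In RNA from whole cultures, a change in all cells and a larger change in some of them cannot be told apart.

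**Figure D1:**
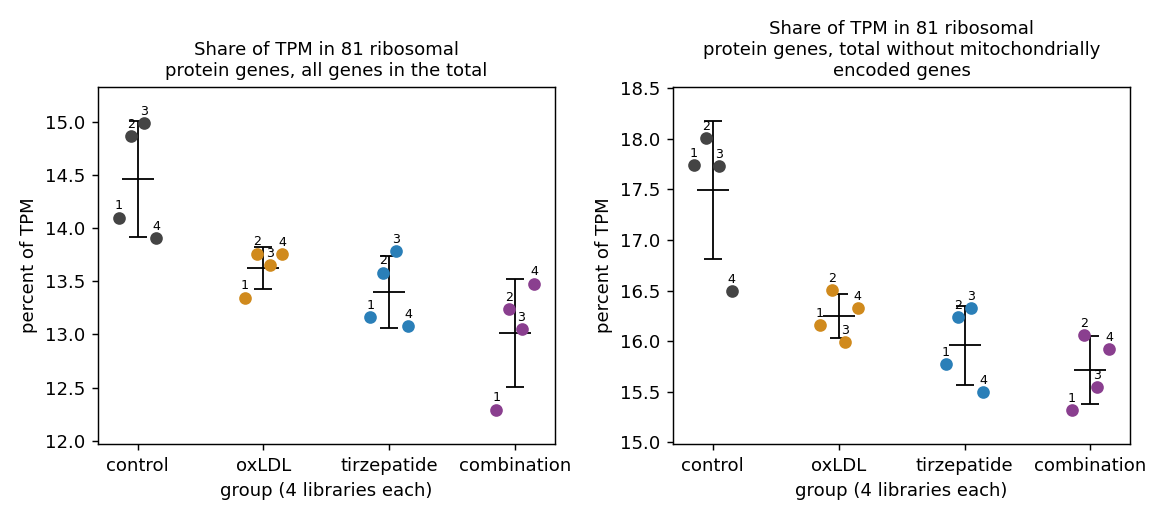
Percent of TPM in the 81 members in each library (points, numbered by replicate) with the group mean and SD (bars), with all genes in the total on the left and without the mitochondrially encoded genes on the right; the vertical axes do not start at 0. Every control lay above every treated library on the left, where the means fell from 14.5% to 13.0%; on the right control 4 (16.49%) lay below 1 oxLDL library (16.51%).

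Other features of the libraries moved with the groups or set single libraries apart. Library totals were 15877278 to 17336019 counts. Mitochondrially encoded genes took 20.5% of TPM in control 1 and 19.8% in combination 1, and 14.7% to 17.6% in the other 14 libraries. Of 23 pancreatic acinar marker genes found in the table, summed counts were 259 to 2614 in the controls, highest in controls 1 and 2, and 72.9 to 673 in the treated libraries. Of the 13 acinar markers tested 11 were called lower with oxLDL, 1 with tirzepatide and 11 with the combination, with median log2 changes of -2.93, -2.08 and -2.50. Taking the acinar markers out of the total left the members' share in the controls at 14.5%, and taking out the mitochondrial genes gave 17.5% in the controls, 16.2% with oxLDL, 15.96% with tirzepatide and 15.7% with the combination. On that total control 4 (16.49%) lay just below 1 oxLDL library (16.51%), so those groups overlapped, while all tirzepatide and combination libraries stayed below the controls. Among the macrophage markers Cd68, Csf1r and Lyz2 were abundant, while Fcgr3 and Mertk had at most 32 and 22 counts, and 21 erythroid, hepatocyte and T and B cell markers had at most 7 counts in any library. The 10 macrophage markers summed to 17061 to 18365 TPM in the controls and 20345 to 23672 TPM in the treated libraries, with 4, 4 and 5 of them called higher with oxLDL, tirzepatide and the combination and 1 called lower, with tirzepatide (2.49%, 2.34% and 4.69% of all genes tested were higher). Most of that sum was Lyz2, at 15150 to 21333 TPM over the 16 libraries. Changes were negative for 2, 4 and 4 of the 10 markers in the same order. The part of these shifts in the members' changes was not tested.

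Ribosomal protein messages of both subunits were lower by a small amount in the tirzepatide libraries than in the controls. Of the 81 members 27 were lower than in control and 0 higher at an adjusted p under 0.05 (edgeR quasi-likelihood test on counts, Benjamini-Hochberg adjustment over all 11319 genes tested), where 1.74% of all genes tested were lower and 2.34% higher. Of the 46 large-subunit genes 13 fell, and of the 32 small-subunit genes 14 fell. The median log2 change of the members was -0.14, so that the median member decreased by 9.31%, beside 0.00 for all genes tested, and 78 of 81 had a negative change where 50.1% of all genes did. In 16 members all 4 tirzepatide libraries lay below all 4 controls in TPM, which held for 2.68% of all genes tested. At an unadjusted p under 0.05, 59 members were lower, as were 8.98% of all genes.

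Rps28, a small-subunit protein beside the messenger RNA exit channel, had the largest change. Its TPM was 474, 471, 510 and 403 in controls 1 to 4 and 320, 351, 393 and 314 in the tirzepatide libraries. All 4 tirzepatide values lay below the lowest control, and the fall was 0.47 on the log2 scale (-0.47, SE 0.08, adjusted p = 0.00168 by edgeR). With oxLDL it was 363, 421, 394 and 426 TPM and with the combination 339, 332, 391 and 380 TPM. The combination libraries were also all below the controls, and the fitted change was -0.41 (SE 0.08, adjusted p = 0.00207 by edgeR), while the oxLDL libraries overlapped them (-0.22, SE 0.08, adjusted p = 0.124 by edgeR).

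Rps27a encodes ubiquitin fused to a small-subunit protein, so that its message supplies both the ribosome and the ubiquitin pool. Its TPM was 2802, 2712, 2789 and 2412 in the controls and 2241, 2238, 2378 and 1839 with tirzepatide. The groups did not overlap, although control 4 and tirzepatide 3 were close, and the log2 change was -0.32 (SE 0.07, adjusted p = 0.00719 by edgeR).

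Rps25, which several viral internal ribosome entry sites need, had 1566, 1548, 1545 and 1338 TPM in the controls and 1296, 1309, 1336 and 1108 with tirzepatide. The groups did not overlap, but control 4 was nearly level with tirzepatide 3 and well below the other 3 controls. The log2 change was -0.28 (SE 0.06, adjusted p = 0.00742 by edgeR).

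Rps19, mutated in Diamond-Blackfan anemia and needed to mature the small subunit, had 824, 911, 891 and 715 TPM in the controls and 670, 724, 733 and 714 with tirzepatide. Control 4 lay inside the tirzepatide range, so the groups overlapped, and the log2 change was -0.29 (SE 0.06, adjusted p = 0.0108 by edgeR). Rps29, one of the shortest, fell as well (-0.39, SE 0.09, adjusted p = 0.0108 by edgeR), with overlapping groups. Rps3, which lines the messenger RNA entry channel, fell without overlap, from 1002 to 1113 TPM in the controls to 878 to 985 with tirzepatide.

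Among large-subunit genes, Rpl36a had the largest change with no overlap between the groups. Its TPM was 1142, 1017, 1023 and 943 in the controls and 831, 932, 889 and 815 with tirzepatide, which gave a fitted change of -0.28 (SE 0.06, adjusted p = 0.0127 by edgeR). Rpl30 also fell without overlap (-0.23), and Rpl31 fell with overlapping groups (-0.24, SE 0.05, adjusted p = 0.0127 by edgeR).

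Rpl11 and Rpl5 form with 5S ribosomal RNA the particle that binds MDM2 when ribosome assembly fails. Rpl11 had 1141, 1290, 1286 and 1136 TPM in the controls and 1037, 1060, 1110 and 1071 with tirzepatide, with no overlap, and fell by 0.21 on the log2 scale (SE 0.05, adjusted p = 0.0147 by edgeR). Rpl5 had 2799 to 2953 TPM in the controls and 2682 to 2822 with tirzepatide, and its log2 change of -0.10 (SE 0.04) did not pass the test (adjusted p = 0.202 by edgeR). Rpl3, which reaches the peptidyl transferase centre, and Rpl22, which also binds RNA outside the ribosome, fell by 0.17 and 0.21 on the log2 scale.

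Several members named whatever their result did not pass with tirzepatide, and their changes were also negative. Of the stalk proteins, Rplp0 had 2732, 3055, 3307 and 3108 TPM in the controls and 2889, 2927, 3069 and 2954 with tirzepatide, so that the treated libraries lay inside the control range. Its log2 change was -0.07 (SE 0.05, adjusted p = 0.427 by edgeR), and that of Rplp1 was -0.15 and of Rplp2 -0.20 (adjusted p = 0.123 and 0.0743 by edgeR). Rps6 had -0.14 (SE 0.05, adjusted p = 0.0915 by edgeR), although its 4 tirzepatide libraries, at 4213 to 4443 TPM, all lay below the controls at 4462 to 4800 TPM. Rpsa, also known as the laminin receptor, Fau, which encodes a small-subunit protein fused to a ubiquitin-like one, Rpl13a and Rpl41 had -0.07, -0.12, -0.13 and -0.12. The changes above 0 were those of Rpl12 (0.00), Rps18 (0.03) and Rps19bp1 (0.02), named after their values were seen, and none of them passed.

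The tirzepatide count rested on single libraries. It was 5 without control 2, 16 without control 3, 46 without control 4, 7 without tirzepatide 1, 17 without tirzepatide 2 and 11 without tirzepatide 4, and 2 without controls 1 and 2 together, where the median change was -0.11.

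**Figure D2:**
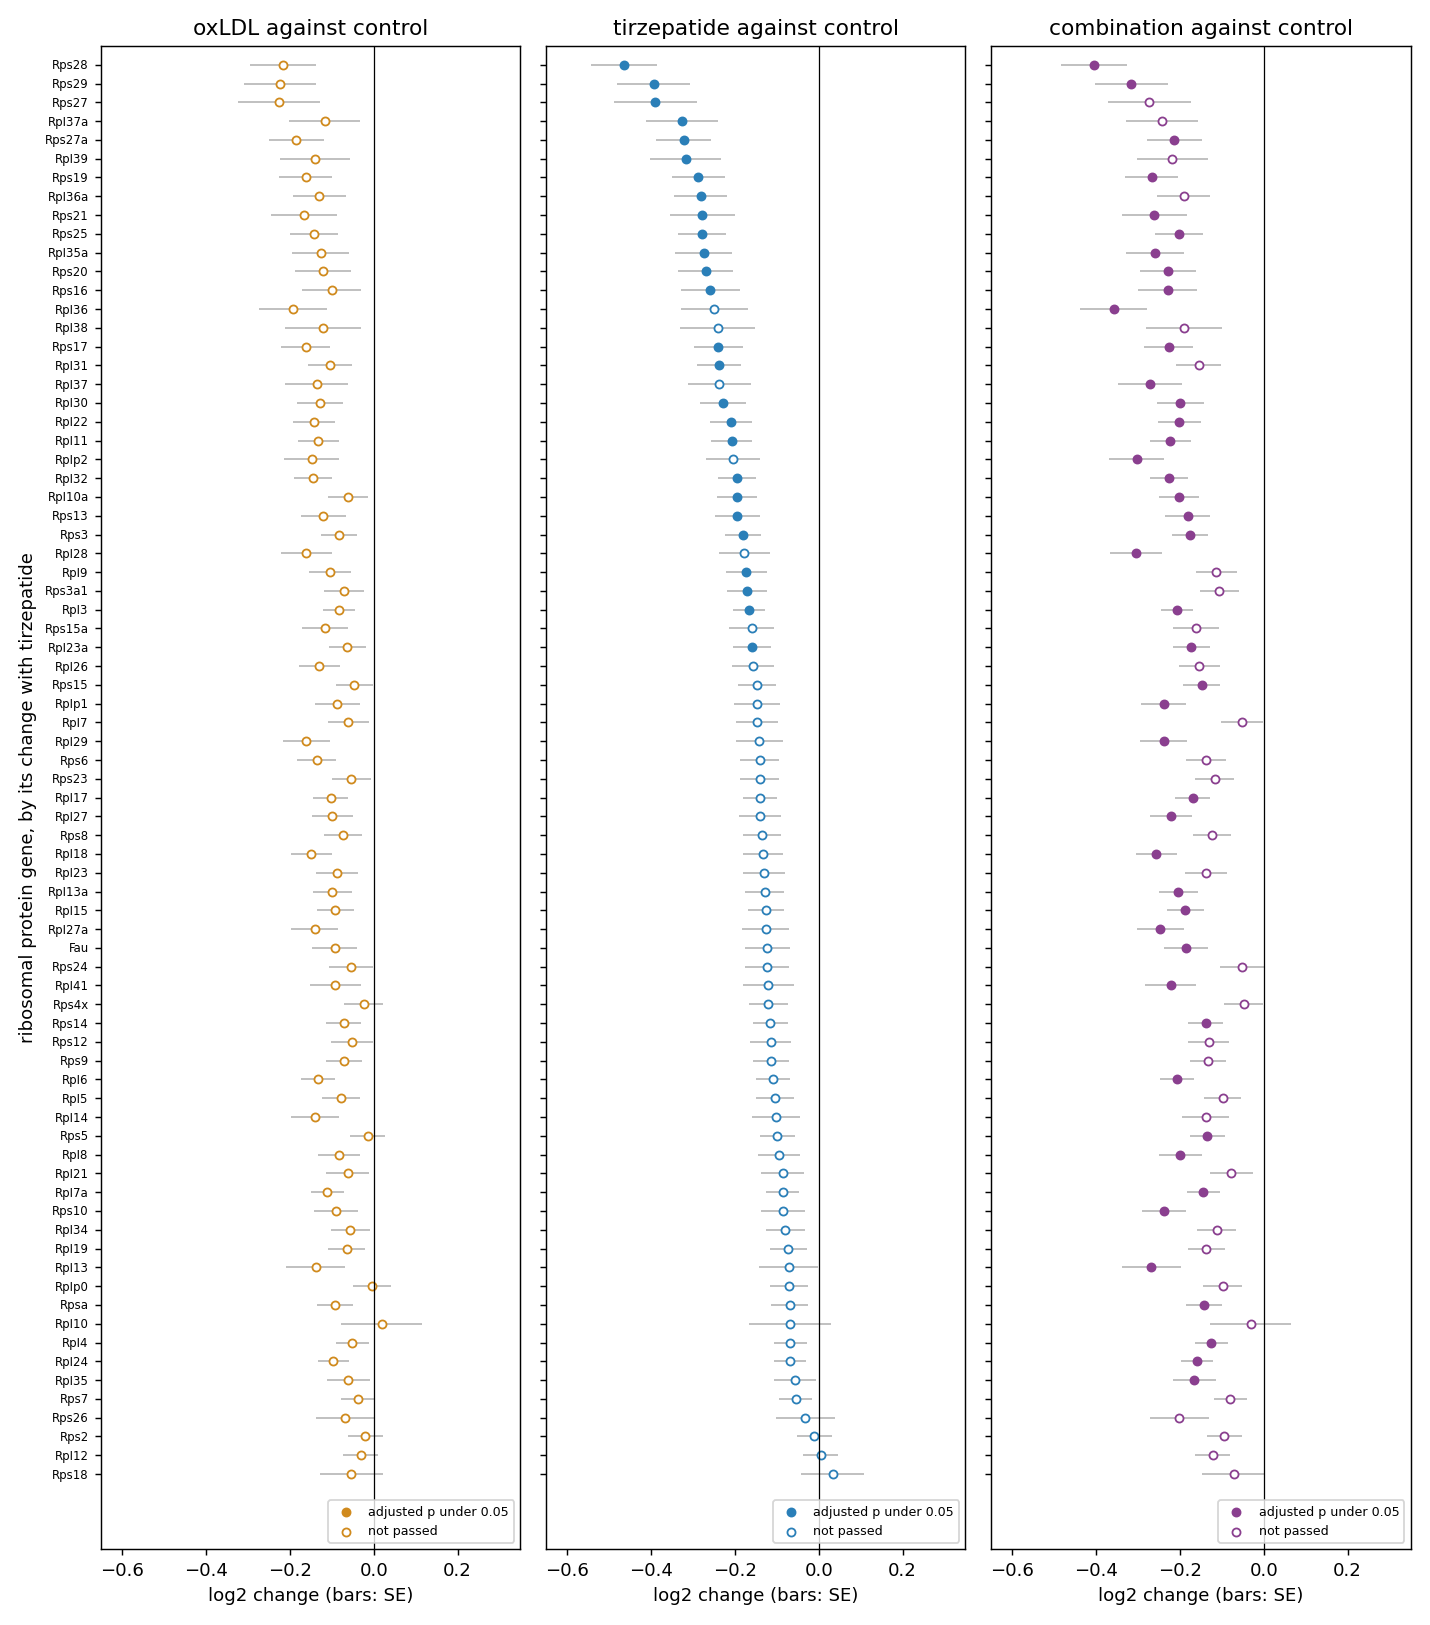
Fitted log2 change (points) and its SE (bars) of 76 of the 78 standard ribosomal protein genes in each treatment against control, ordered by the change with tirzepatide; filled points passed the test. Nearly all points lie left of 0 in the 3 panels, and 0, 26 and 45 are filled from left to right.

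Counts that were split between a gene and its copy changed what was called. Rps18 alone had a log2 change of 0.03 with tirzepatide (adjusted p = 0.857 by edgeR). The copy Rps18-ps6 had 2501, 2667, 2645 and 2351 TPM in the controls and 2014, 2212, 2329 and 1997 with tirzepatide, with no overlap, a log2 change of -0.28 (adjusted p = 0.00687 by edgeR). With both entries summed, the pair fell by 0.25 on the log2 scale with tirzepatide (SE 0.05, adjusted p = 0.00715 by edgeR) and by 0.22 with the combination (SE 0.05, adjusted p = 0.00803 by edgeR). The same summing left Rpl10 with -0.05 with tirzepatide (adjusted p = 0.559 by edgeR) and took Rpl9, called with tirzepatide at an adjusted p of 0.0497 by edgeR, to 0.0558.

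Rps27 and its retrotransposed copy Rps27rt shared their counts in part. Rps27rt held 15.4% to 28.8% of the pair's counts over the 16 libraries. The promoter entries of both carry the same stretch of 38 bases from near the start, of which the lines here show 29 and 30 bases in capitals, within a window of 10 bases before to 30 after the annotated start.
Rps27 (chr3:90213619-90213658, minus strand): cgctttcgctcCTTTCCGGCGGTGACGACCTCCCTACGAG
Rps27rt (chr9:114982710-114982749, minus strand): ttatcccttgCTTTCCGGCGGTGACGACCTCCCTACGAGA
Rps27 had 1948, 1708, 1651 and 1316 TPM in the controls and 1280, 1342, 1452 and 1100 with tirzepatide, with overlap through control 4. It fell by 0.39 on the log2 scale (SE 0.10, adjusted p = 0.0250 by edgeR), and by 0.32 with its copy added (SE 0.08, adjusted p = 0.0320 by edgeR). Rps27rt alone had -0.08 (SE 0.15), and Rpl35rt, at 1.28 to 6.27 TPM, had too few reads to place its change (-0.39, SE 0.45).

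OxLDL alone gave changes in the same direction that did not pass the test. Of the 81 members 0 were called by edgeR, where 2.05% of all genes tested were lower and 2.49% higher, 34 were lower at an unadjusted p under 0.05 (8.35% of all genes), and DESeq2 called 4 and limma 5. The median log2 change was -0.10, and 79 of 81 members had a negative change, as had 50.5% of all genes. In 8 members the 4 oxLDL libraries all lay below the controls, against 3.44% of all genes: Rpl11, Rpl17, Rpl22, Rpl23, Rpl32, Rpl7a, Rps6 and Rpsa.

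The members nearest to the threshold with oxLDL, chosen after their values were seen, were Rpl6 and Rpl32. Rpl32 had 2828, 2969, 2934 and 2781 TPM in the controls and 2511, 2652, 2581 and 2708 with oxLDL, with no overlap and a change of -0.15 on the log2 scale (SE 0.05, adjusted p = 0.0655 by edgeR). Rps6 had 4800, 4751, 4711 and 4462 TPM in the controls and 4257, 4346, 4264 and 4258 with oxLDL, a narrow range below each control (-0.14, SE 0.05, adjusted p = 0.107 by edgeR). Rplp0 lay within the range of the controls, at 2887 to 3163 TPM (0.00, SE 0.05, adjusted p = 0.977 by edgeR). The count of called members changed most without 1 control: it was 19 without control 4, which had the lowest share of ribosomal protein messages among the controls, 3 without control 1, 2 without tirzepatide 4, and 1 without combination 1 or without combination 2, and 9 without control 1 and combination 1 together. Over all genes the main fit called 282 higher and 232 lower. Those refits called 554, 523, 544, 594, 583 and 705 of all genes, in that order.

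The combination gave the most calls. Of the 81 members 47 were lower than in control and 0 higher at an adjusted p under 0.05 by edgeR, where 4.25% of all genes tested were lower and 4.69% higher. They were 29 of the 46 large-subunit genes and 18 of the 32 small-subunit genes. The median log2 change was -0.19, so that the median member decreased by 12.2%, beside 0.00 for all genes tested, and 80 of 81 had a negative change (50.7% of all genes), the exception being Rpl35rt. At an unadjusted p under 0.05, 71 were lower (11.5% of all genes). In 25 members all 4 combination libraries lay below all controls, against 3.27% of all genes, and 21 of the 25 were large-subunit genes.

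Rpl3 had the smallest p. Its TPM was 2593, 2955, 3069 and 2868 in the controls, 2619, 2608, 2866 and 2792 with oxLDL, 2577, 2633, 2655 and 2572 with tirzepatide, and 2454, 2448, 2547 and 2570 with the combination. The combination libraries lay below all libraries of the other 3 groups, and the log2 change against control was -0.21 (SE 0.04, adjusted p = 0.00133 by edgeR). Control 1 was the lowest control and lay just above the highest combination library.

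Rpl18, a large-subunit protein, had 1133, 1321, 1340 and 1196 TPM in the controls and 944, 1111, 1061 and 1101 with the combination. Its groups did not overlap, and it fell by 0.26 on the log2 scale (SE 0.05, adjusted p = 0.00167 by edgeR). With tirzepatide alone its TPM was 1119, 1137, 1180 and 1207, which overlapped the controls, with a change that did not pass (-0.13, adjusted p = 0.121 by edgeR). Rpl6 fell by 0.21 on the log2 scale (SE 0.04, adjusted p = 0.00210 by edgeR), and Rpl32 fell by 0.23 on the log2 scale.

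Rpl28 and the stalk proteins Rplp1 and Rplp2, which with Rplp0 recruit the factors that drive translation, fell with the combination. Rplp2 had 702, 741, 728 and 663 TPM in the controls and 473, 565, 707 and 609 with the combination. Combination 3 lay within the control range and combination 1 far below it, and the log2 change was -0.30 (SE 0.07, adjusted p = 0.00494 by edgeR). Rplp1 fell by 0.24 on the log2 scale (SE 0.05, adjusted p = 0.00694 by edgeR) with no overlap between the groups. Rpl28 had 917, 1012, 1222 and 1019 TPM in the controls and 720, 920, 889 and 899 with the combination, and the fitted change was -0.30 (SE 0.06, adjusted p = 0.00270 by edgeR). Rplp0 did not pass (-0.10, SE 0.05, adjusted p = 0.192 by edgeR).

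Of the other members named whatever their result, Rpl11, Rpl13a, Rpl22, Rpl41, Rps3, Rps19, Rps27a, Rpsa and Fau fell with the combination, with log2 changes from -0.27 for Rps19 to -0.14 for Rpsa. Rps3, Rps19, Rps27a, Rpsa and Fau overlapped the controls in TPM. Under the alternative settings listed at the end, Rps27a lost its call in 11, Rpsa in 8, and Rpl41 and Fau in 6 each. Rpl22, Rps3 and Rps19 lost it in 3 each, Rpl13a in 1 and Rpl11 in 0. Rpl13a, a protein that also takes part in silencing of inflammatory messages in macrophages, had 1881, 1980, 1966 and 1736 TPM in the controls and 1465, 1661, 1678 and 1731 with the combination. The groups did not overlap, with combination 4 next to control 4, and the log2 change was -0.20 (SE 0.05, adjusted p = 0.00723 by edgeR). Rps6 (-0.14) and Rpl5 (-0.10) did not pass (adjusted p = 0.0724 and 0.183 by edgeR).

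The combination count was 20 without control 2, 28 without control 3, 25 without combination 1, 21 without controls 1 and 2, and 28 without control 1 and combination 1, the libraries with the most mitochondrial RNA. The median change in the last case was -0.15. Over all genes the main fit called 531 higher and 481 lower. Those refits called 475, 506, 526, 967 and 857 of all genes, in that order.

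**Figure D3:**
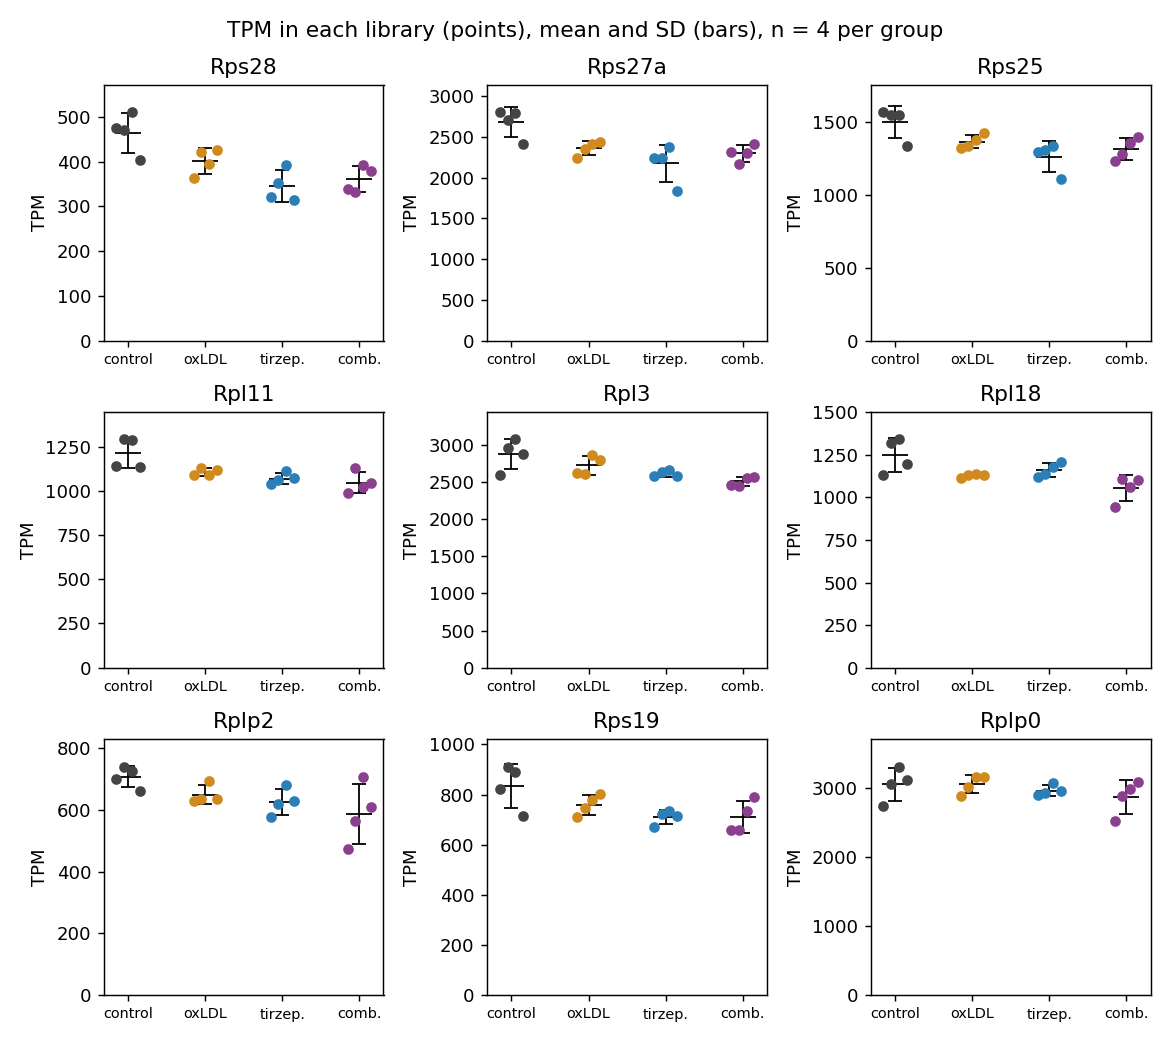
TPM of 9 members in each library (points), with the mean and SD of each group (bars, n = 4); each vertical axis starts at 0. Rps28 and Rps27a are lowest with tirzepatide, Rpl3 and Rpl18 are lowest with the combination, and Rplp0 overlaps in all groups.

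The treatments were then set side by side; they share the control libraries, so likeness between them is not independent. Of the members 20 were called with both tirzepatide and the combination, which is 74.1% of the tirzepatide calls and 42.6% of the combination calls. A further 7 were called with tirzepatide alone, 27 with the combination alone and 27 with neither. Changes were negative in all 3 comparisons with control for 76 members. The combination had the lowest of the 3 changes for 45 members, tirzepatide for 34 and oxLDL for 2. The same counts were not made over all genes tested. They therefore describe the members and do not set them apart from other genes.

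In the direct comparisons of the combination with each single treatment no member passed. Against oxLDL 0 members were called by edgeR, as were 0 of all 11319 genes in the lower direction (0% called), while 21 members were lower at an unadjusted p under 0.05 (4.97% of all genes) and DESeq2 called 1 and limma 0. The median log2 change was -0.07 and 77 of 81 were negative (51.3% of all genes). In 10 members all combination libraries lay below all oxLDL libraries, against 1.67% of all genes, among them Rpl3, Rpl18 and Rpl28. Rpl3 had the smallest p of the members (-0.12, SE 0.04, adjusted p = 0.305 by edgeR).

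Against tirzepatide 0 members were called by edgeR, where 0.777% of all genes tested were lower, while 11 were lower at an unadjusted p under 0.05 (7.28% of all genes) and DESeq2 called 1 and limma 0. The median log2 change was -0.02, 47 of 81 were negative (50.1% of all genes), and the median was -0.04 over the large-subunit genes and 0.01 over the small-subunit genes. Of 6 members whose groups did not overlap, all lower (4.4% of all genes), each was of the large subunit. Rpl12 had the smallest p (-0.13, SE 0.04, adjusted p = 0.148 by edgeR).

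The interaction compared the combination with the 2 single log2 changes added together. It called 0 members by edgeR, where 0.0707% of all genes passed in either direction, and also 0 by DESeq2 and by limma, while 13 members had a positive interaction at an unadjusted p under 0.05, as had 4.77% of all genes, and 0 a negative one. The median was 0.07, and 16 of 81 members were negative (51.1% of all genes). Rps27a had the smallest p (0.29, SE 0.09, adjusted p = 0.256 by edgeR): its TPM was 2679 ± 182 in the controls, 2363 ± 84.4 with oxLDL, 2174 ± 233 with tirzepatide and 2301 ± 105 with the combination (SD, n = 4).

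The change varied with the length of the transcript. Effective length was taken as counts per TPM relative to the median tested gene. Across the 78 standard genes, which share libraries and normalization, Spearman's rho between length and log2 change was 0.34 with oxLDL, 0.40 with tirzepatide and 0.35 with the combination, so that shorter genes had larger decreases. Over the 11238 genes that are not members rho was 0.11, 0.07 and 0.12. The 6 standard genes up to 0.15 of the median length, Rps27, Rps28, Rps29, Rps21, Rpl36 and Rpl38, had a median of -0.33 with tirzepatide, and the 6 other genes of that length had -0.24.

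Between 0.15 and 0.20 of the median length, the median with tirzepatide was -0.18 for 10 standard genes and -0.19 for 55 other genes. Between 0.20 and 0.30 it was -0.14 for 31 and -0.08 for 301, and between 0.30 and 0.50 it was -0.13 for 25 and -0.03 for 1204. With the combination the same 4 bins gave -0.29, -0.20, -0.20 and -0.14 for the standard genes and -0.08, -0.12, -0.09 and -0.05 for the others. Other short genes thus had negative medians as well. The part of transcript length in the members' changes was not tested. Rps20, by its gene model the 1 standard gene longer than the median tested gene, fell with tirzepatide (-0.27, SE 0.07, adjusted p = 0.0215 by edgeR). As 1 gene it does not show how long members changed.

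**Figure D4:**
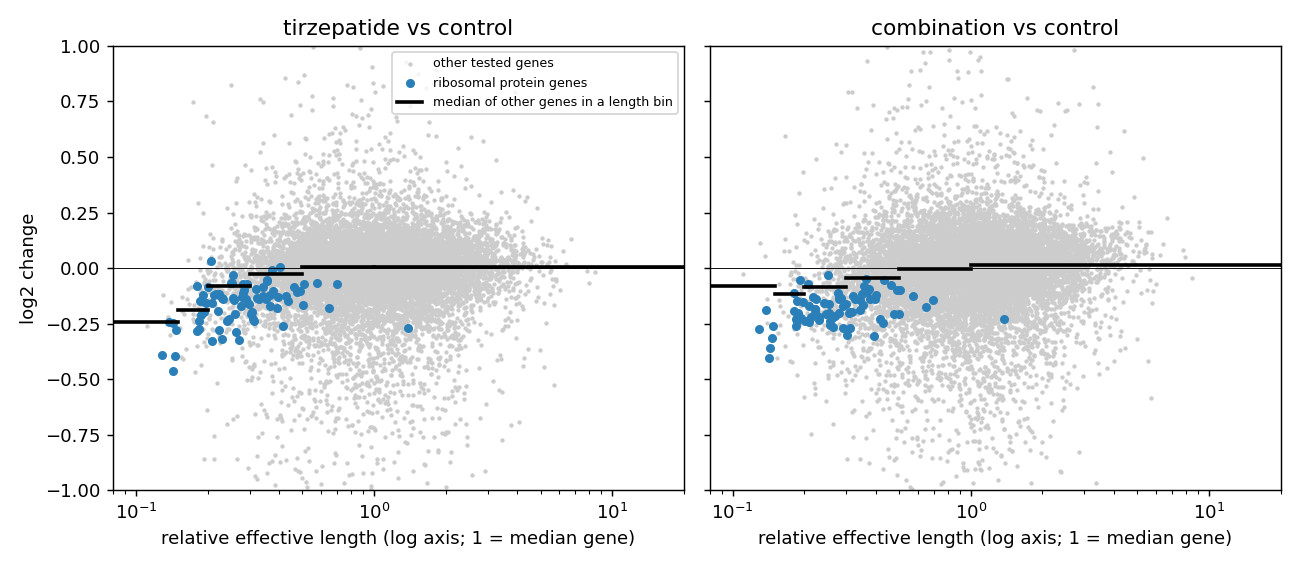
Log2 change with tirzepatide (left) and with the combination (right) against relative effective length on a log axis, for the standard ribosomal protein genes (blue) and the other tested genes (grey; those beyond a change of 1 either way are not shown), with the median of the other genes in each length bin (black bars). The blue points lie mostly below 0 at short lengths, and the black bars also fall below 0 there.

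Genes with and without a pyrimidine run at the start had overlapping ranges of change. With tirzepatide the median log2 change was -0.13 for the 37 matched genes with a run (-0.39 to 0.03) and -0.16 for the 21 without (-0.47 to -0.06). The classes depend on the window and the annotated start, because a run that began before the window was cut. Rps25 (-0.28) counted as without, although a long pyrimidine run beginning with C crosses the upstream edge of its window. With the combination it was -0.19 and -0.16, and with oxLDL -0.10 and -0.10. Rps28, printed above with no run, and Rpl12 and Rps2 (0.00 and -0.01 with tirzepatide), which have one, were chosen for their changes. Among the genes with a run in the window the largest decrease with tirzepatide was that of Rps27 (-0.39). The part of the run in the members' changes was not tested.

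Of 20 genes with TOP messages outside the ribosome, 4 fell with tirzepatide and 5 with the combination, 0 rose in either (1.74% and 4.25% of all genes tested were lower), and the median log2 changes were -0.08 and -0.07, with 17 and 20 negative. Btf3, part of the complex that binds nascent chains, and Eif3e fell with tirzepatide (-0.15 and -0.18). Eif3f, Eef1g and Btf3 fell with the combination (-0.26, -0.14 and -0.15). With oxLDL 0 of the 20 were called by edgeR, 4 were lower at an unadjusted p under 0.05 (8.35% of all genes), and the median was -0.05.

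Genes that assemble ribosomes gave a few calls in the other direction. Of 45 ribosome biogenesis factors 4 rose and 0 fell with tirzepatide, where 2.34% of all genes tested were higher, with a median log2 change of 0.07 and 9 of 45 negative. Those that rose included Ftsj3, which acts in the processing of ribosomal RNA, and Nop14 and Ddx18 (0.23, 0.17 and 0.17). With the combination 6 rose and 0 fell (median 0.03, 4.69% of all genes higher), among them Imp4, Nop16 and Ftsj3, by 0.20, 0.20 and 0.19 on the log2 scale. Imp4 also rose with oxLDL (0.20, SE 0.05, adjusted p = 0.0208 by edgeR), the 1 of 45 to do so, where the median was -0.02, 26 of 45 were negative, and 5 were lower and 5 higher at an unadjusted p under 0.05 (945 and 1097 of the 11319 genes tested).

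The other translation lists held few calls and calls in both directions, to be read beside shares of all genes called higher and lower of 2.34% and 1.74% with tirzepatide, 4.69% and 4.25% with the combination, and 2.49% and 2.05% with oxLDL. Of 14 genes of RNA polymerase I and its factors, Ubtf, which opens ribosomal DNA for transcription, rose with tirzepatide (0.20, SE 0.05, adjusted p = 0.0215 by edgeR) and Taf1d fell with oxLDL (-0.29, SE 0.07, adjusted p = 0.0155 by edgeR). Of 35 initiation factors 2 rose and 2 fell with tirzepatide: Eif4g1 (0.21) and Eif3c (0.14) against Eif3e (-0.18) and Eif3k (-0.17). With the combination Eif3a rose (0.15) and Eif3f (-0.26) and Eif4b (-0.15) fell. Of 9 elongation and release factors Eef1g, a subunit of the factor that reloads eEF1A, fell with tirzepatide (-0.12) and with the combination (-0.14). Eif3e, Eif3f, Eif4b and Eef1g are also among the genes with TOP messages outside the ribosome, so these lists are not independent. Of 20 genes of the TOR pathway and regulators of ribosomal protein synthesis 1 passed, Max, the partner of Myc, which rose with tirzepatide (0.23).

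The mitochondrial ribosome translates the few messages of the mitochondrial genome and has its own proteins. Of 78 genes for them 0 were called with tirzepatide by edgeR, with 4 lower and 5 higher at an unadjusted p under 0.05 and a median log2 change of 0.01, and 1, Mrpl28 (-0.28), fell with the combination, where the median was -0.05. The 13 mitochondrially encoded protein genes had medians of -0.12 with oxLDL, -0.15 with tirzepatide and -0.03 with the combination, with 0 called by edgeR in each and 1, 5 and 0 lower at an unadjusted p under 0.05, where 8.35%, 8.98% and 11.5% of all genes were. The 4 tested paralogs that the rule left out had medians of -0.15, -0.17 and -0.14 in that order, and 1 of them, Rpl36al, fell with tirzepatide (-0.25, SE 0.07, adjusted p = 0.0421 by edgeR).

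**Figure D5:**
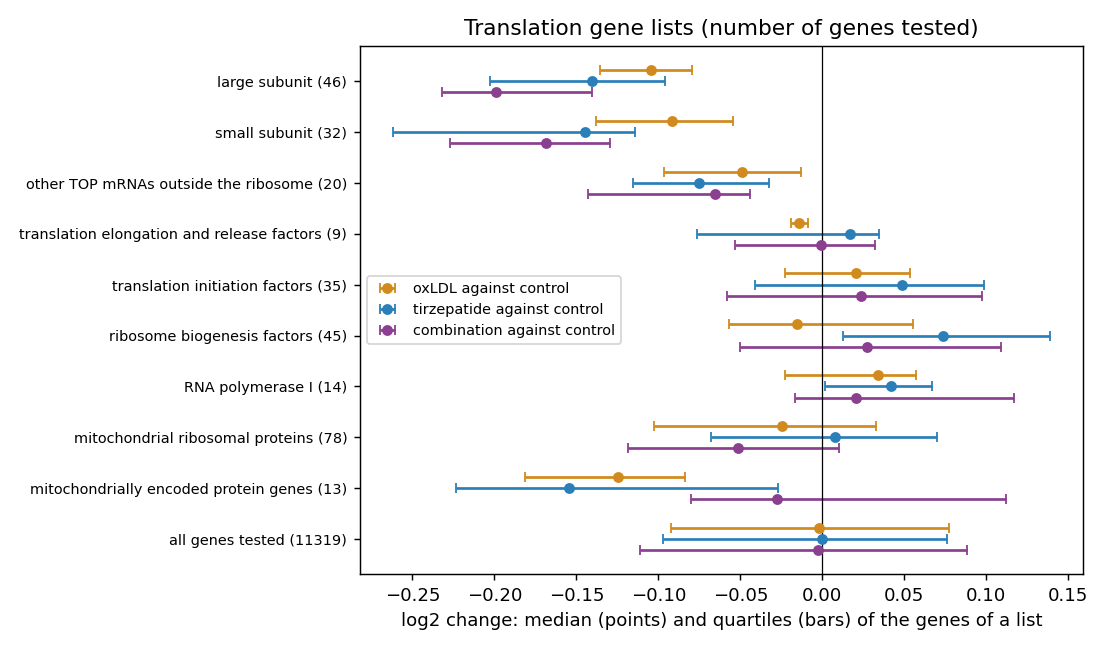
Median (points) and quartiles (bars) of the log2 changes of the genes of each list in the 3 treatments against control, with the number of genes tested in brackets. Some initiation and elongation factors are also in the list of TOP messages outside the ribosome. The 2 ribosomal subunits lie between -0.20 and -0.09 at their medians, and the other nuclear-encoded lists plotted lie closer to 0 or above it.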

How the data were processed

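Expected counts and TPM per gene and library were deposited by the authors, and per the submitters' processing notes RSEM (no version), StringTie 1.3.1, Bowtie2 2.2.8 and fastp 0.18.0 were used with the builds GRCm39 and mm39; the annotation release is not given in the sources used here. RSEM's expected count divides reads that fit several entries, which bears on genes with pseudogene copies. The deposited TPM values carry no further scaling between libraries.

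Expected counts were rounded and fitted with edgeR 4.0.16 under R 4.3.3. Genes were kept by filterByExpr (minimum count 10), scaled by TMM, and tested by quasi-likelihood in 1 fit of 16 libraries, each group having its mean. Adjustment by Benjamini-Hochberg ran over the 11319 genes tested per contrast, and an adjusted p under 0.05 was called. The fit was tested on simulated counts with known changes, drawn with the same dispersion for every gene. The simulation held no library effects beyond depth and no trend with length, so it does not bear on those patterns. Totals of 15877278 to 17336019 counts set the precision, and standard errors of the standard members' log2 changes against control ran from 0.04 to 0.10. The groups come from the sample labels.

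The members and lists were chosen with earlier results of these data known. Members were named as the up to 8 called with the smallest p in a contrast, the 5 highest and 5 lowest by TPM, up to 5 with the largest change among those whose tirzepatide and control groups did not overlap, and 15 fixed genes; of other lists up to 3 called genes per contrast were named. Of the genes so named, 3 are not reported here. Small nucleolar RNA host genes were not analysed here. Alternatives were a replicate block, only the groups compared, other scalings and filters, DESeq2 1.42.0, limma 3.58.1 and leaving out libraries; summing a gene with its copy, the mitochondrial share as a covariate and leaving out control 1 with combination 1 were chosen after seeing the data.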

Additional observations from a re-analysis of the deposited data

Results flagged for a closer look

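Of 108 groups of 4 libraries examined, from 26 named members and the members' share of TPM in each of the 4 treatment groups, 7 had 1 library whose value stood far from the other 3 by Dixon's 95% limit. Chance gives about 1 in 20. Control 4 was low in Rpl41 (1166 TPM, others 1260 to 1276) and in Rps25 (1338 TPM, others 1545 to 1566). With oxLDL, replicate 3 was high in Rplp2 (696 TPM, others 631 to 637) and replicate 2 was high in Rps6 (4346 TPM, others 4257 to 4264). Tirzepatide 1 was low in Fau (1093 TPM, others 1149 to 1161). With the combination, replicate 3 was low in Rpl5 (2570 TPM, others 2783 to 2802) and replicate 1 was low in Rpl28 (720 TPM, others 889 to 920). The libraries set apart were different ones except for control 4.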

How the results depend on the processing

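Members called with oxLDL (0 as reported) were 6 with a replicate block, 1 with only the compared groups in the fit, 3 with library totals and no TMM, 2 with no filter, 2 with a mean of at least 5 TPM, 4 by DESeq2, 5 by limma, 7 with the mitochondrial covariate and 9 without control 1 and combination 1. All genes called in these settings were 734, 516, 475, 588, 514, 663, 463, 813 and 705, in that order. Each library left out in turn gave 0 to 19 members. With tirzepatide (27) they were 42 with a replicate block, 15 with only the compared groups, 2 without controls 1 and 2, and 5 to 46 with each library left out. Of all genes 750, 264 and 204 were called with the block, the compared groups only and without controls 1 and 2. With the combination (47) the members called were 21 with only the compared groups (410 of all genes), 21 without controls 1 and 2 (967), 28 without control 1 and combination 1 (857), and 20 to 64 with each library left out. Against oxLDL DESeq2 called 1 (33 of all genes), and each library left out gave 0 to 0. Against tirzepatide the block gave 2 (378 of all genes), no filter 1 (282) and DESeq2 1 (318), with 0 to 1 for each library left out. The labels do not state whether same-numbered libraries were handled together. Their deviations from the group means correlated at -0.13 to 0.18 over 24 pairs, 5 of them over 0.1. The mitochondrial share of TPM was higher in libraries 1 and 2 than in 3 and 4 of every group. In the controls it was 20.5%, 17.5%, 15.5% and 15.7%, and with the combination 19.8%, 17.6%, 16.1% and 15.4%. Whether same-numbered libraries shared a batch was not tested.

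The median change stayed negative under all 29 alternatives with oxLDL (-0.14 to -0.05), tirzepatide (-0.18 to -0.11) and the combination (-0.22 to -0.13). Against tirzepatide it ran from -0.036 to 0.0025, and was 0.0025 without tirzepatide 3 and 0.0020 without control 1 and combination 1. Rplp0 with oxLDL was 0.061 by limma after quantile normalization, -0.036 to 0.028 with each library left out, above 0 without control 3 (0.028) and without oxLDL 1 (0.011). As a share of counts the members held 6.10%, 5.71%, 5.59% and 5.44% in control, oxLDL, tirzepatide and combination; without mitochondrial genes in the TPM total these were 17.5%, 16.2%, 15.96% and 15.7%. The cause of these differences was not tested.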
